A study of Mus musculus with 24 samples.

Results

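The collagen genes outside cartilage are those whose symbol has the form Col, a number, the letter a and a number, with the cartilage genes Col2a1, Col9a1 and Col9a2 left out. Of 13803 genes in the table, 41 had such a symbol and 38 were kept: 10 fibrillar, 9 of basement membranes, 6 FACIT (fibril-associated collagens with interrupted triple helices) and 13 others. Col9a3, the remaining chain of type IX, was kept by the same rule. The study sorted stromal cells by fluorescence from mouse embryonic kidneys carrying FoxD1Cre-eGFP, a driver active in kidney stroma that all groups share, and sequenced their RNA. The 8 groups of 3 libraries were beta-catSD cells (deficient in beta-catenin, SD below) on C57BL/6 at embryonic days E12.5 and E13.5, beta-catSO cells (with stabilised beta-catenin, SO below) on CD1 at both stages, wild-type C57BL/6 cells at both stages and wild-type CD1 cells at both stages. Each allele was set against wild-type cells of its own strain, since strain goes with the allele. The labels do not say which alleles the names SD and SO stand for.

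Collagens are triple helices of 3 alpha chains, which are hydroxylated and folded in the endoplasmic reticulum and then trimmed and cross-linked outside the cell. Types I, III, V and XI form fibrils, and FACIT collagens sit on the surface of fibrils. Type IV builds the sheet of basement membranes, where types VII, XV and XVIII are also found. Beta-catenin carries the canonical Wnt signal to the nucleus, where it acts with factors of the TCF/LEF family.

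Values are the deposited log2 CPM, the logarithm of a gene's read count scaled to a common library size, so a difference of 1 is a 2-fold change. Changes were tested with limma, p-values were adjusted by the Benjamini-Hochberg method over all 13803 genes, and a gene was called at an adjusted p under 0.05. Errors of changes are standard errors. Libraries held between 6.18 M and 21.2 M reads. The design speaks of 3 kidneys for a genotype, and whether the libraries of a group are separate kidneys, animals or litters is not stated, so the p-values describe how far libraries spread, which may be technical. Ctnnb1, which encodes beta-catenin, stood at 10.66, 10.47 and 10.36 log2 CPM in SD cells at E12.5, against 10.85, 10.86 and 10.69 in wild-type C57BL/6, and at 10.34, 10.36 and 10.38 in SD cells at E13.5, against 10.54, 10.52 and 10.51 in wild-type C57BL/6, with a mean change of -0.24 ± 0.05 (adjusted p = 0.00193). In the other line it stood at 10.61, 10.68 and 10.62 log2 CPM in SO cells at E12.5, against 10.77, 10.74 and 10.75 in wild-type CD1, and at 10.45, 10.41 and 10.44 in SO cells at E13.5, against 10.47, 10.57 and 10.51 in wild-type CD1, with a mean change of -0.1 ± 0.05 (adjusted p = 0.143). The stromal marker Foxd1 was abundant in every group, with means of 7.42 to 9.06 log2 CPM, and its mean change was 0.05 ± 0.11 in SD cells (adjusted p = 0.857) and -1.02 ± 0.11 in SO cells (adjusted p = 1.56e-07). Wild-type CD1 E13.5 replicate 1 stood apart: 12 endothelial markers summed to 992 CPM in it, against 103 and 58.1 CPM in the other replicates. Ureteric markers summed to 262 CPM in it, against 52.7 and 62.6 CPM, and nephron progenitor markers to 401 CPM, against 130 and 121 CPM. Stromal markers summed to 5422 CPM in it, against 7849 and 8184 CPM. Liver markers summed to 3784 CPM in wild-type C57BL/6 E12.5 replicate 3, to 811 CPM in wild-type CD1 E13.5 replicate 3 and to 182 to 194 CPM in all 3 wild-type CD1 libraries at E12.5, while the other 19 libraries held at most 5.73 CPM. Erythroid markers summed to 60 to 976 CPM in SO cells at E12.5, against 3208 to 3320 CPM in wild-type CD1, every library of which was above every SO library. At E13.5 they summed to 74.5 to 577 CPM in SO cells, against 4046, 1402 and 40.5 CPM in wild-type CD1. In SD cells they summed to 9.16 to 61.4 CPM at E12.5, against 570 to 834 CPM in wild-type C57BL/6. At E13.5 SD sums were 9.66 to 41.1 CPM, against 41.4 to 1179 CPM. In bulk RNA, fewer cells of a type and less RNA per cell cannot be told apart.

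Among the 38 genes, type I and type III transcripts dominated in wild-type stroma. Per kilobase of transcript, Col1a1 averaged 9.25 log2 CPM per kb over the 12 wild-type libraries (lowest 8.94, highest 9.62), followed by Col3a1 at 8.88, Col1a2 at 8.75 and Col26a1 at 7.25. The library ranges of Col1a1, Col3a1 and Col1a2 overlapped, while Col1a1 was above Col1a2 per kb in each of the 12 wild-type libraries, by 0.2 to 0.84 on the log2 scale. Together these 3 genes took 70.2% ± 1.14 and 69% ± 1.07 of all reads on the 38 genes in wild-type C57BL/6 at E12.5 and E13.5 (SD, n = 3 each), and 68.5% ± 0.921 and 65.6% ± 4.68 in wild-type CD1. Col26a1, which encodes a small secreted collagen, stood above Col5a1 and Col5a2, the main chains of type V, at 6.39 and 5.99 log2 CPM per kb. At the other end Col4a3, Col6a5, Col17a1, Col4a4 and Col20a1 averaged -3.96 to -2.07 log2 CPM per kb. Col4a3 and Col20a1 were the 2 members with a mean log2 CPM under 0 over all libraries, and 4 of the 38 genes had 0 reads in at least 1 library. Wide ranges were seen for Col15a1, from -1.67 to 4.08, and for Col18a1, from 1.97 to 5.85 log2 CPM per kb.

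**Figure D1:**
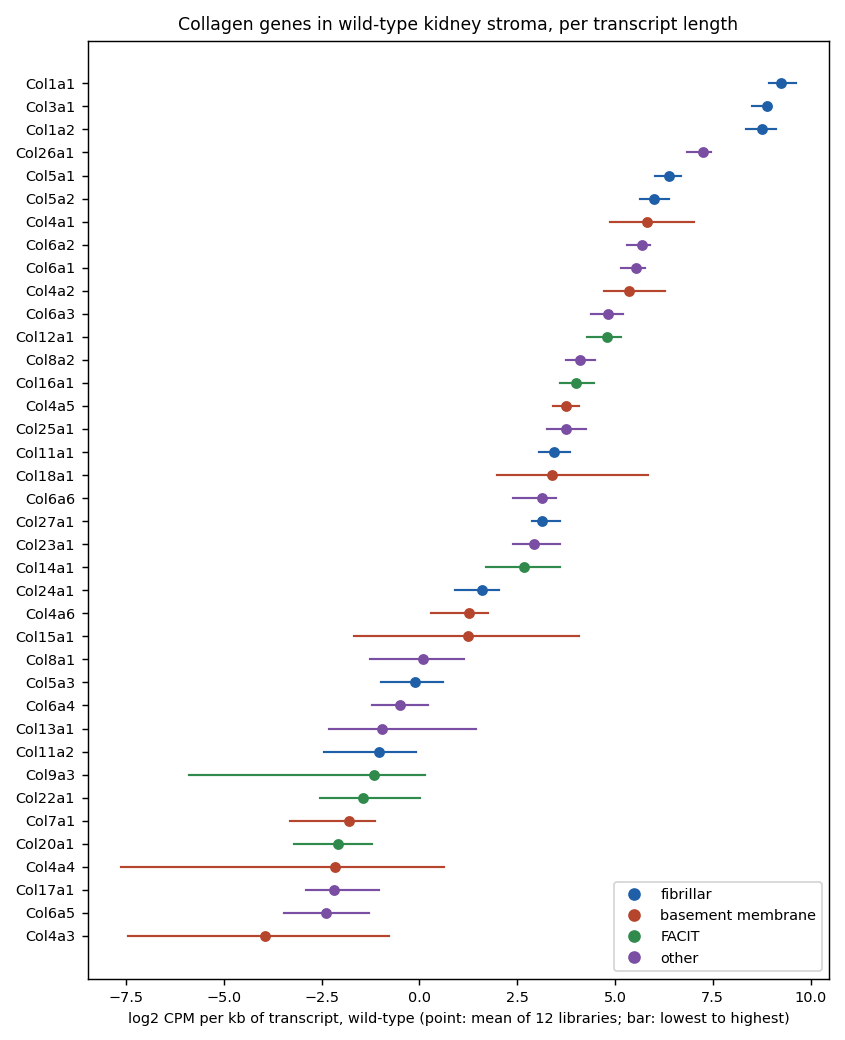
Level of each of the 38 collagen genes in wild-type cells, in log2 CPM per kb of transcript on the x axis; points are means of 12 libraries, bars run from the lowest to the highest library and colours give the class. Col1a1, Col3a1 and Col1a2 lead at 8.75 to 9.25, and Col4a3 is last at -3.96.

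In SD cells 6 of the 38 genes changed when both stages were averaged: Col11a1, Col24a1, Col8a1, Col8a2 and Col26a1 rose and Col15a1 fell. Over all genes 7.17% were called in that comparison (3.46% higher and 3.71% lower). By class 2 of 10 fibrillar, 1 of 9 basement membrane, 0 of 6 FACIT and 3 of 13 other genes were called by limma, and 0 FACIT genes had an unadjusted p under 0.05. The median change was 0.13 for the 38 genes and 0 for all genes. At E12.5 Col8a2 alone was called, where 1.72% of all genes were (0.985% higher and 0.732% lower). At E13.5 limma called 0 members, where 3.40% of all genes were called (1.33% higher and 2.07% lower). An unadjusted p under 0.05 was found for 14 members at E12.5 and 7 at E13.5, against 13.9% and 14.6% of all genes. SD libraries lay apart from wild-type libraries for 7 members at E12.5, 5 above and 2 below (16.0% of all genes lay apart), and for 9 at E13.5, 4 above and 5 below (21.2% of all genes lay apart). No gene of the table was called by limma for a difference of the SD effect between stages (0 of 38 members and 0% of all genes, with 3 members and 5.46% of all genes at an unadjusted p under 0.05). Without SD E13.5 replicate 3 the averaged comparison called 3 members, and without SD E12.5 replicate 1 the E12.5 comparison called 5.

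**Figure D2:**
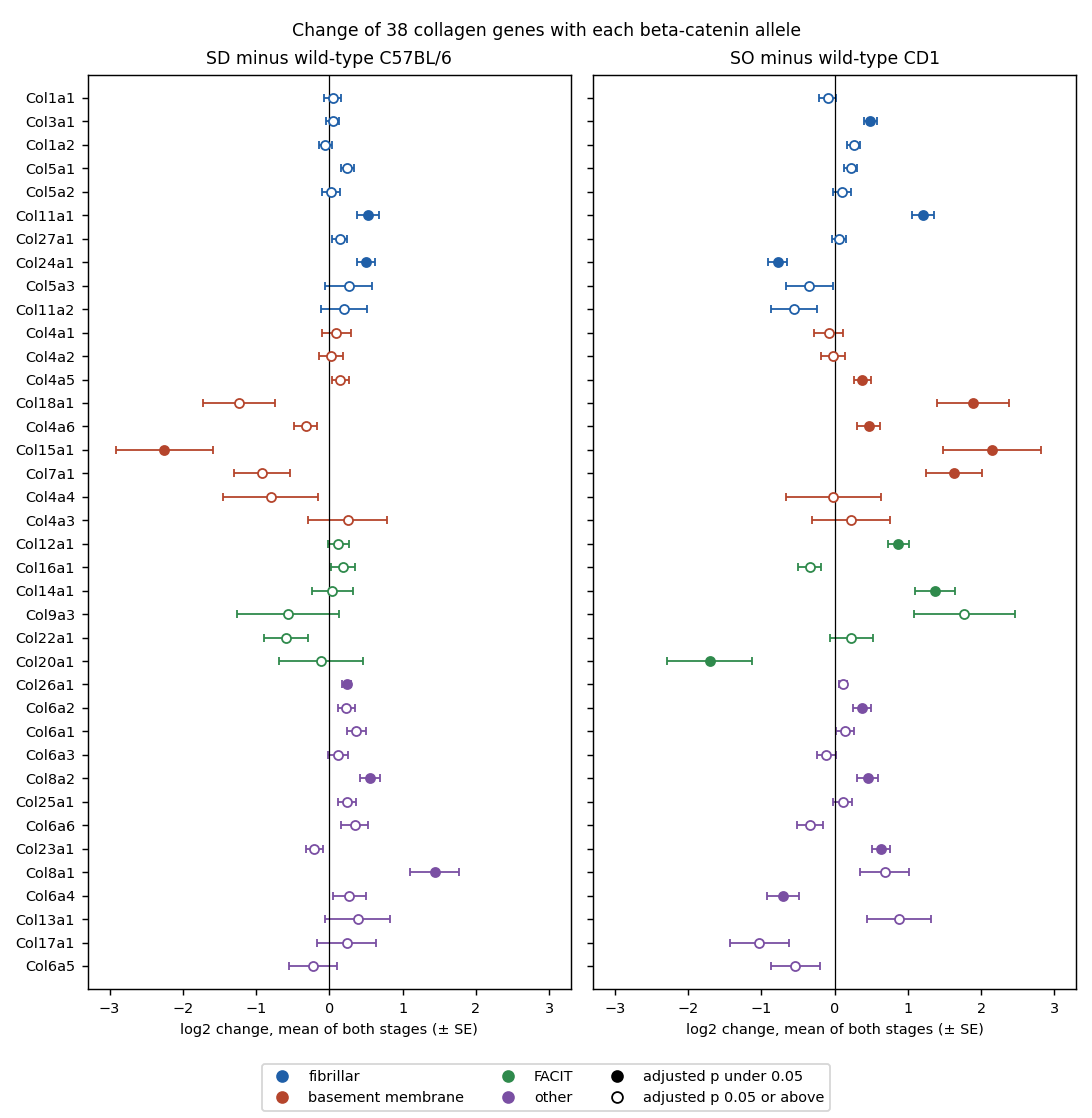
Log2 change of each gene averaged over both stages, SD minus wild-type C57BL/6 on the left and SO minus wild-type CD1 on the right, with its standard error; colours give the class and filled points an adjusted p under 0.05. There are 6 filled points for SD and 15 for SO; Col15a1 lies at -2.25 for SD and at 2.14 for SO.

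Among the fibrillar genes Col24a1 (chr3:145292472-145552011, GRCm38), which encodes a minor fibrillar chain known from developing bone, stood at 5, 4.95 and 4.78 log2 CPM in SD cells at E12.5, against 4.32, 4.55 and 4.53 in wild-type C57BL/6, and at 4.7, 5.06 and 4.51 in SD cells at E13.5, against 4.27, 4.11 and 4.25 in wild-type C57BL/6. SD libraries were above every wild-type library at both stages, and the mean change was 0.5 ± 0.12, a fold of 1.41 (adjusted p = 0.0133). Col11a1 (chr3:114030540-114220718), the alpha 1 chain of type XI, which limits fibril diameter, stood at 6.07, 6.77 and 7.23 log2 CPM in SD cells at E12.5, against 6.04, 6.36 and 6.32 in wild-type C57BL/6, and at 6.89, 7.04 and 7.5 in SD cells at E13.5, against 6.75, 6.35 and 6.55 in wild-type C57BL/6. The groups overlapped at E12.5 and lay apart at E13.5, and the mean change was 0.52 ± 0.15 (adjusted p = 0.0348). Of the fits that left out a library 6 of 12 ended the Col11a1 call, with adjusted p up to 0.115. Its adjusted p was 0.0809 with voom weights and 0.0725 with the 12 libraries of the SD line.

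The main chains of stromal fibrils did not pass the test in SD cells. Col1a1 stood at 11.64, 11.57 and 12.36 log2 CPM in SD cells at E12.5, against 11.51, 11.69 and 11.79 in wild-type C57BL/6, and at 11.62, 11.7 and 12.13 in SD cells at E13.5, against 11.92, 11.9 and 11.91 in wild-type C57BL/6. Col1a2, the partner chain of type I, stood at 11.15, 10.9 and 11.55 log2 CPM in SD cells at E12.5, against 11.1, 11.2 and 11.24 in wild-type C57BL/6, and at 10.71, 10.92 and 11.07 in SD cells at E13.5, against 11.16, 11 and 10.92 in wild-type C57BL/6. Col3a1, the chain of type III, stood at 11.23, 11.28 and 11.77 log2 CPM in SD cells at E12.5, against 11.36, 11.39 and 11.38 in wild-type C57BL/6, and at 11.24, 11.28 and 11.75 in SD cells at E13.5, against 11.44, 11.32 and 11.41 in wild-type C57BL/6. The groups overlapped for all 3 genes at both stages. The mean changes were 0.05 ± 0.12 for Col1a1, -0.05 ± 0.09 for Col1a2 and 0.04 ± 0.09 for Col3a1 (adjusted p = 0.871, 0.812 and 0.851). Replicate 3 was the highest SD library for 28 of the 38 genes at E12.5 and for 23 of 38 at E13.5. Among wild-type C57BL/6 libraries replicate 3 was the highest for 22 of 38 at E12.5 and for 7 of 38 at E13.5.

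The short-chain genes Col8a1 (chr16:57624258-57754737) and Col8a2 (chr4:126286793-126314330), whose products form the lattice of the corneal Descemet's membrane and occur in vessel walls, both rose. Col8a1 stood at 2.14, 2.5 and 4.19 log2 CPM in SD cells at E12.5, against 1.08, 2.15 and 1.86 in wild-type C57BL/6, and at 3.1, 2.92 and 4.81 in SD cells at E13.5, against 2.26, 2 and 1.69 in wild-type C57BL/6. Its mean change was 1.44 ± 0.33, a fold of 2.7 (adjusted p = 0.00756); the groups overlapped at E12.5 and lay apart at E13.5. Col8a2 stood at 6.39, 6.52 and 7.46 log2 CPM in SD cells at E12.5, against 5.87, 5.94 and 6.15 in wild-type C57BL/6, and at 6.45, 6.51 and 7.12 in SD cells at E13.5, against 6.59, 6.33 and 6.23 in wild-type C57BL/6. SD libraries lay above wild-type at E12.5 and overlapped it at E13.5, and the mean change was 0.56 ± 0.14 (adjusted p = 0.0155). With voom weights the adjusted p of Col8a1 was 0.0783. With the 12 libraries of the SD line the adjusted p of the mean Col8a2 change was 0.061. Without SD E12.5 replicate 3 the E12.5 change of Col8a2 was 0.47 (adjusted p = 0.247), against 0.8 with it (adjusted p = 0.038).

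Col26a1 (chr5:136741759-136883209) had the smallest change among the called genes. It stood at 9.06, 9 and 9.11 log2 CPM in SD cells at E12.5, against 8.89, 8.79 and 8.66 in wild-type C57BL/6, and at 8.78, 8.89 and 8.92 in SD cells at E13.5, against 8.66, 8.66 and 8.69 in wild-type C57BL/6. SD libraries were above wild-type at both stages, with a mean change of 0.23 ± 0.06 and a fold of 1.18 (adjusted p = 0.0117). Leaving out single libraries ended the call in 0 of 12 fits.

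Col15a1 (chr4:47208161-47313167), a basement membrane collagen of the multiplexin family, was the gene that fell. It stood at 1.83, 0.04 and 2.8 log2 CPM in SD cells at E12.5, against 1.27, 4.01 and 3.93 in wild-type C57BL/6, and at 0.34, -0.1 and 0.53 in SD cells at E13.5, against 3.51, 3.6 and 2.65 in wild-type C57BL/6. At E13.5 these were 9, 6 and 10 reads in SD cells, against 79, 110 and 53 reads in wild-type. The groups overlapped at E12.5 and lay apart at E13.5, and the mean change was -2.25 ± 0.67 (adjusted p = 0.0403). Col18a1, the other multiplexin, whose fragment endostatin limits vessel growth, had a change of -1.23 ± 0.5 (adjusted p = 0.148), and Col7a1, the chain of anchoring fibrils, one of -0.92 ± 0.38 (adjusted p = 0.171). Of the fits that left out a library 10 of 12 ended the Col15a1 call, and with voom weights its adjusted p was 0.473.

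Markers of vessels and macrophages were lower in SD cells too. Of 12 endothelial markers 8 fell and 0 rose over both stages. They summed to 51.9 to 121 CPM in SD cells at E12.5, against 62.9 to 222 CPM in wild-type C57BL/6, and to 71 to 137 CPM at E13.5, against 155 to 166 CPM. Of 11 macrophage markers 10 fell and 0 rose, with sums of 79.1 to 184 CPM in SD cells at E12.5, against 110 to 682 CPM, and 16 to 47.3 CPM at E13.5, against 185 to 307 CPM. Every marker of both lists had reads in each group, and their part in the collagen values was not tested. Of 12 stromal markers 2 rose and 1 fell, and of 8 mural and smooth muscle markers 1 rose and 0 fell.

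In SO cells 15 of the 38 genes changed over both stages, 12 upward and 3 downward, where 18.5% of all genes were called (10.2% higher and 8.32% lower). The genes that rose were the fibril-surface genes Col12a1 and Col14a1, the basement membrane genes Col7a1, Col15a1, Col18a1, Col4a5 and Col4a6, the fibrillar genes Col11a1 and Col3a1, and Col6a2, Col8a2 and Col23a1. Those that fell were Col24a1, Col20a1 and Col6a4. By class 3 of 10 fibrillar, 5 of 9 basement membrane, 3 of 6 FACIT and 4 of 13 other genes were called. The median change was 0.18 for the 38 genes and 0 for all genes. At E12.5 Col11a1, Col4a5, Col12a1, Col14a1 and Col23a1 rose and Col24a1 fell, where 8.16% of all genes were called (5.17% higher and 3.00% lower). At E13.5 Col1a2, Col3a1, Col5a1, Col11a1, Col7a1, Col15a1, Col18a1, Col12a1, Col14a1, Col6a2, Col23a1 and Col26a1 rose and Col24a1, Col20a1 and Col17a1 fell, where 15.4% of all genes were called (8.53% higher and 6.83% lower). SO libraries lay apart from wild-type libraries for 19 members at E12.5, 11 above and 8 below (31.1% of all genes lay apart), and for 18 at E13.5, 14 above and 4 below (27.9% of all genes lay apart). Without wild-type CD1 E13.5 replicate 3 the E13.5 count was 8, without replicate 1 it was 13, and without SO E12.5 replicate 3 the count over both stages was 9. The E12.5 count was 2 without SO E12.5 replicate 2 or without wild-type CD1 E12.5 replicate 1, and 3 without SO E12.5 replicate 3. Leaving out a library ended the E12.5 call of Col23a1 in 4 of 6 fits and that of Col4a5 in 3 of 6.

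Col11a1 had the smallest p of the 38 genes in SO cells. It stood at 7.27, 7.46 and 7.58 log2 CPM in SO cells at E12.5, against 5.99, 6.27 and 6.27 in wild-type CD1, and at 7.57, 7.69 and 7.69 in SO cells at E13.5, against 6.05, 6.67 and 6.78 in wild-type CD1. Every SO library was above every wild-type library of its stage, with a mean change of 1.21 ± 0.15 and a fold of 2.31 (adjusted p = 2.26e-06). Col24a1 stood at 3.89, 3.92 and 3.86 log2 CPM in SO cells at E12.5, against 4.87, 4.78 and 4.69 in wild-type CD1, and at 3.78, 3.58 and 3.5 in SO cells at E13.5, against 3.74, 4.58 and 4.55 in wild-type CD1. Its groups lay apart at E12.5 and overlapped at E13.5 through wild-type CD1 replicate 1, and the mean change was -0.78 ± 0.12 (adjusted p = 5.14e-05). Leaving out single libraries ended neither call (0 of 12 fits for Col11a1 and 0 of 12 for Col24a1).

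Col12a1 (chr9:79598991-79718831) and Col14a1 (chr15:55307750-55520803), FACIT collagens that coat type I fibrils in tendon and skin, rose at both stages. Col12a1 stood at 9.19, 9.16 and 9.3 log2 CPM in SO cells at E12.5, against 8.45, 8.58 and 8.59 in wild-type CD1, and at 9.16, 9.58 and 9.54 in SO cells at E13.5, against 7.87, 8.57 and 8.68 in wild-type CD1. Col14a1 stood at 5.85, 5.83 and 6.4 log2 CPM in SO cells at E12.5, against 4.55, 4.95 and 4.79 in wild-type CD1, and at 7.16, 7.5 and 7.61 in SO cells at E13.5, against 5.93, 5.81 and 6.11 in wild-type CD1. For both genes every SO library was above every wild-type library of its stage. The mean change was 0.87 ± 0.14 for Col12a1 (adjusted p = 9.02e-05) and 1.37 ± 0.27 for Col14a1 (adjusted p = 7.94e-04). Their E12.5 calls taken alone (adjusted p = 0.0382 and 0.0456) ended in 6 of 6 fits that left out a library for each gene. Col20a1, a little-studied FACIT gene, fell by 1.71 on the log2 scale (adjusted p = 0.0416) on 0 to 13 reads a library in SO cells, against 7 to 28 in wild-type CD1, and 8 of 12 fits ended that call.

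Of the chains of type I and type III, Col3a1 rose over both stages in SO cells and the type I chains did not pass that test. Col3a1 (chr1:45311538-45349706) stood at 11.63, 11.6 and 11.61 log2 CPM in SO cells at E12.5, against 11.4, 11.47 and 11.46 in wild-type CD1, and at 11.92, 12.01 and 12.13 in SO cells at E13.5, against 10.98, 11.45 and 11.21 in wild-type CD1. SO libraries were above wild-type at both stages, with a mean change of 0.49 ± 0.09 (adjusted p = 3.92e-04). Col1a1 stood at 11.49, 11.49 and 11.45 log2 CPM in SO cells at E12.5, against 11.79, 11.94 and 11.79 in wild-type CD1, and at 11.95, 12.02 and 12.17 in SO cells at E13.5, against 11.57, 12.19 and 11.87 in wild-type CD1, and its mean change was -0.1 ± 0.12 (adjusted p = 0.63). Col1a2 stood at 11.31, 11.36 and 11.33 log2 CPM in SO cells at E12.5, against 11.4, 11.53 and 11.45 in wild-type CD1, and at 11.54, 11.62 and 11.74 in SO cells at E13.5, against 10.77, 11.32 and 10.89 in wild-type CD1. SO libraries were under wild-type for both type I genes at E12.5, while at E13.5 those of Col1a2 were above wild-type and those of Col1a1 overlapped it. Col1a2 was the single member whose SO effect differed between stages, at 0.64 ± 0.13 at E13.5 (adjusted p = 0.00144) and -0.13 ± 0.13 at E12.5 (adjusted p = 0.661). The difference was 0.77 ± 0.19 (adjusted p = 0.0453; 1.33% of all genes were called, 0.717% higher and 0.609% lower), and 9 of 12 fits that left out a library ended it. Col5a1 rose at E13.5 by 0.5 ± 0.13 (adjusted p = 0.00699).

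**Figure D3:**
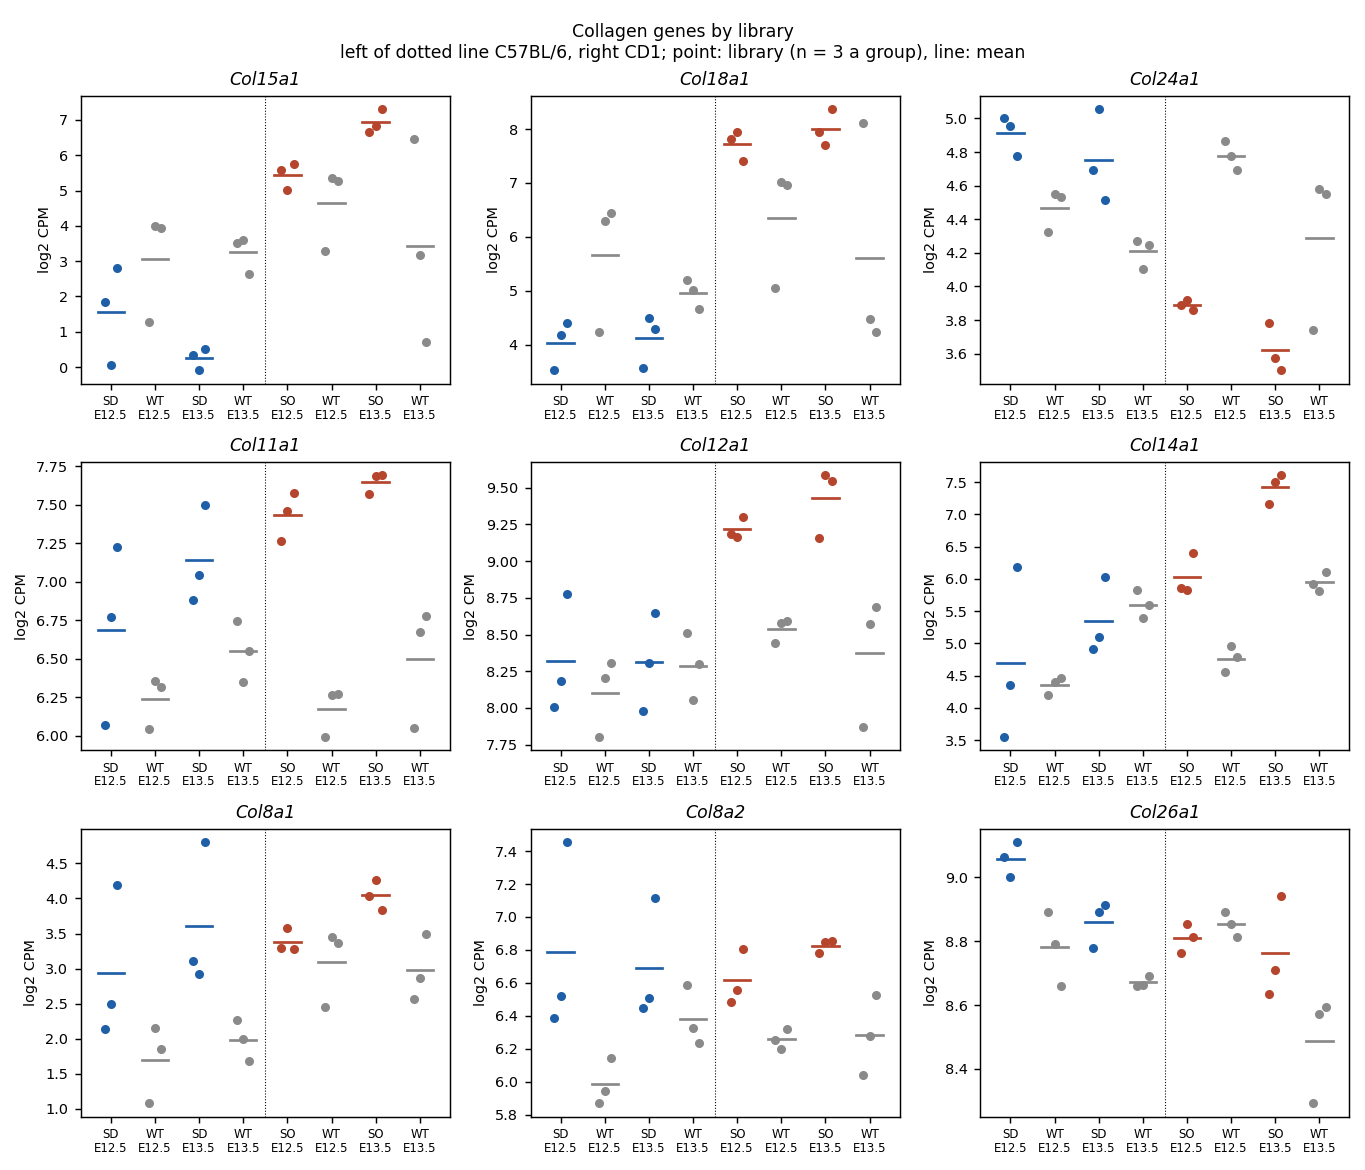
Log2 CPM of 9 collagen genes in every library, with mutant groups left of wild-type of the same strain and stage; points are libraries, lines are means of 3 and the dotted line parts C57BL/6 from CD1. Col11a1, Col12a1 and Col14a1 are higher in every SO library than in every wild-type CD1 library of that stage, and Col15a1 in wild-type CD1 at E13.5 is at 6.45, 3.16 and 0.7.

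Partner chains of one collagen type were compared per transcript length, as log2 ratios within each library and with no test. No background share of ratios that lie apart was computed, so the separations below cannot be read against one. Among the pairs examined, Col4a1 over Col4a2 overlapped wild-type at both stages with both alleles. Type I is mostly built from 2 alpha 1 chains and 1 alpha 2 chain. Col1a1 over Col1a2 was 0.02, -0.02 and -0.03 in SO cells at E12.5, against 0.24, 0.26 and 0.2 in wild-type CD1, and 0.26, 0.25 and 0.28 at E13.5, against 0.65, 0.72 and 0.83. SO libraries lay under wild-type at both stages. In SD cells the mean ratio was 0.51 at E12.5, against 0.34 in wild-type C57BL/6, and 0.77 at E13.5, against 0.73, and the groups overlapped. Other SD ratios lay apart from wild-type. At E13.5 Col4a5 over Col4a6 was 3.14 to 3.27 in SD cells, against 2.43 to 2.52 in wild-type C57BL/6. Col5a1 over Col5a2 was 0.35 to 0.63 in SD cells, against 0.08 to 0.24 in wild-type C57BL/6, and Col11a1 over Col5a1 was -2.47 to -2.07 in SD cells, against -2.75 to -2.53 in wild-type C57BL/6. Col6a1 over Col6a2 was 0.02 to 0.09 in SD cells, against -0.2 to -0.04 in wild-type C57BL/6. At E12.5 Col6a3 over Col6a1 was -1.21 to -1.02 in SD cells, against -0.91 to -0.51 in wild-type C57BL/6, and Col4a3 over Col4a4, both on few reads, also lay apart. Each of these pairs overlapped at the other stage. Col6a1 over Col6a2, partner chains of the beaded filaments of type VI, was -0.41 to -0.33 in SO cells at E13.5, against -0.09 to 0.01 in wild-type CD1, and the groups overlapped at E12.5. Col6a3 over Col6a1 was -1.3 to -0.93 in SO cells at E13.5, against -0.62 to -0.53 in wild-type CD1, and overlapped at E12.5. Col11a1 over Col5a1 was -2.32 to -1.8 in SO cells at E12.5, against -3.53 to -3.28, and -2.21 to -2 at E13.5, against -2.91 to -2.48. The SO libraries of that ratio lay above wild-type at both stages.

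**Figure D4:**
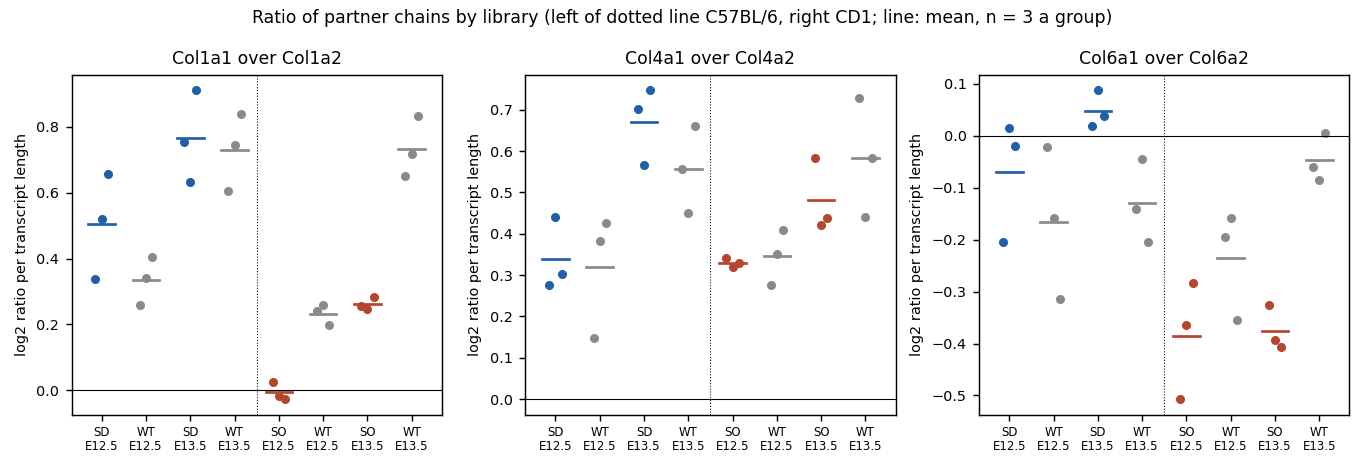
Log2 ratio of partner chains per transcript length in every library, with mutant groups left of wild-type; points are libraries and lines are means of 3. The Col1a1 over Col1a2 ratio averages -0.01 in SO cells at E12.5, against 0.23 in wild-type CD1, and 0.26 at E13.5, against 0.73.

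Col4a1 (chr8:11198423-11312826) and Col4a2 (chr8:11312805-11449287), whose products form the type IV network of nearly every basement membrane, are transcribed away from each other, and their annotated starts lie 21 bases apart, each inside the other gene. The windows from 250 bases before to 50 after each start (RefSeq, GRCm38.p6) are shown because this pair, read from one shared stretch, was called with neither allele while other basement membrane genes were called. The 78 bases that the windows share are in capitals.
Col4a1 window, chr8:11312777-11313076, minus strand: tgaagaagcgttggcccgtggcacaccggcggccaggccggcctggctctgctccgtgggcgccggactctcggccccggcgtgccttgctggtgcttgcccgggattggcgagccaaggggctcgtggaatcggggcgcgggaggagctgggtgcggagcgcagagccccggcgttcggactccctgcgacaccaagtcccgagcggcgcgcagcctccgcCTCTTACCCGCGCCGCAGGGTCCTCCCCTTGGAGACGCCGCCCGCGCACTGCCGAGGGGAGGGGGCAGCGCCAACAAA
Col4a2 window, chr8:11312555-11312854, plus strand: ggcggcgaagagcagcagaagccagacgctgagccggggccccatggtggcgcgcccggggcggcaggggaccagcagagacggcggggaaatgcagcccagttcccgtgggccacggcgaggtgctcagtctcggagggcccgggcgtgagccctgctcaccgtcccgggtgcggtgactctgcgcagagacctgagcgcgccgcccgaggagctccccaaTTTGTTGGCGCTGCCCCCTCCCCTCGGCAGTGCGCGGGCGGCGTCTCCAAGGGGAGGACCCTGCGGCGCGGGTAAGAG
No label says whether counting used strand, so reads on overlapping exons of the pair cannot be told apart. The same holds for Col5a1, Col4a3, Col15a1, Col9a3, Col22a1, Col6a4 and Col6a6, whose exons overlap a gene on the other strand, and Col3a1, Col7a1 and Col20a1 share exon bases with a gene on the same strand.

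In SO cells Col4a1 stood at 8.62, 8.73 and 8.28 log2 CPM at E12.5, against 8.19, 8.89 and 8.85 in wild-type CD1, and at 9.02, 8.65 and 8.97 in SO cells at E13.5, against 9.73, 8.49 and 8.61 in wild-type CD1. Col4a2 stood at 8.25, 8.37 and 7.91 log2 CPM in SO cells at E12.5, against 7.88, 8.51 and 8.4 in wild-type CD1, and at 8.4, 8.19 and 8.49 in SO cells at E13.5, against 8.97, 8.02 and 7.99 in wild-type CD1. The groups overlapped for both genes, with changes of -0.08 ± 0.2 and -0.03 ± 0.17 (adjusted p = 0.83 and 0.945). At E13.5 they overlapped through wild-type CD1 replicate 1 alone, the library with 992 CPM of endothelial markers. Every SO library was above the other wild-type CD1 replicates of that stage for both genes. In SD cells Col4a1 stood at 7.67, 8 and 8.39 log2 CPM at E12.5, against 7.6, 8.3 and 8.29 in wild-type C57BL/6, and at 8.41, 8.51 and 9.32 in SD cells at E13.5, against 8.57, 8.37 and 8.61 in wild-type C57BL/6, and its change was 0.09 ± 0.2 (adjusted p = 0.853). Col4a2 stood at 7.36, 7.52 and 8.06 log2 CPM in SD cells at E12.5, against 7.41, 7.88 and 7.83 in wild-type C57BL/6, and at 7.67, 7.9 and 8.54 in SD cells at E13.5, against 7.98, 7.89 and 7.91 in wild-type C57BL/6, and its change was 0.03 ± 0.17 (adjusted p = 0.963). The SD and wild-type groups overlapped for both genes at both stages. The X-linked pair Col4a5 and Col4a6, chains of type IV found in fewer basement membranes, rose in SO cells by 0.38 ± 0.12 and 0.46 ± 0.15 (adjusted p = 0.022 and 0.0362). Leaving out a library ended the Col4a5 call in 2 of 12 fits and the Col4a6 call in 6 of 12.

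**Figure D5:**
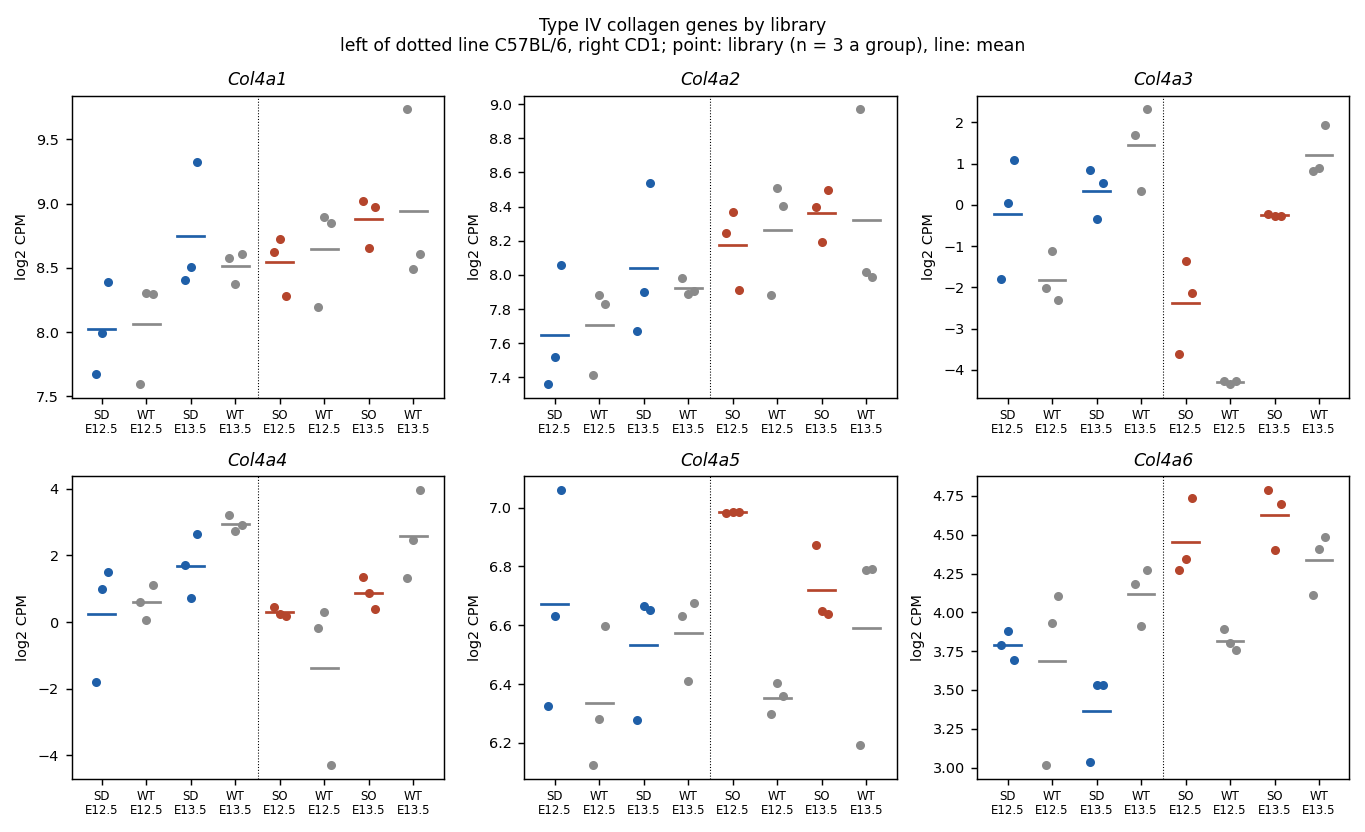
Log2 CPM of the 6 type IV genes in every library, with mutant groups left of wild-type; points are libraries, lines are means of 3 and the dotted line parts the strains. Col4a1 is at 9.73, 8.49 and 8.61 in wild-type CD1 at E13.5, and Col4a3 has 0 reads in the 3 wild-type CD1 libraries at E12.5.

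Col15a1, Col18a1 (chr10:77052178-77166548) and Col7a1 (chr9:108953586-108984875) rose most among the called genes in SO cells. Col15a1 stood at 5.58, 5.01 and 5.74 log2 CPM in SO cells at E12.5, against 3.3, 5.36 and 5.28 in wild-type CD1, and at 6.65, 6.82 and 7.32 in SO cells at E13.5, against 6.45, 3.16 and 0.7 in wild-type CD1. Its mean change was 2.14 ± 0.67 (adjusted p = 0.026). Col18a1 stood at 7.81, 7.94 and 7.41 log2 CPM in SO cells at E12.5, against 5.05, 7.02 and 6.97 in wild-type CD1, and at 7.94, 7.7 and 8.38 in SO cells at E13.5, against 8.11, 4.48 and 4.23 in wild-type CD1, and its mean change was 1.89 ± 0.5 (adjusted p = 0.00826). Wild-type CD1 E13.5 replicate 1, the library with 992 CPM of endothelial markers, was the highest wild-type CD1 library for both genes, and replicate 3 the lowest of its stage. Endothelial markers summed to 108 to 236 CPM in SO cells at E12.5, against 116 to 428 CPM in wild-type CD1, and to 301 to 462 CPM at E13.5, against 58.1 to 992 CPM. Over both stages limma called 0 of the 12 and 0 had an unadjusted p under 0.05; at E13.5 it called 0, 2 had an unadjusted p under 0.05, and the median change of the 12 was 1.62. At E13.5 the Col15a1 change was 3.49 ± 0.94 (adjusted p = 0.0128), 5 without replicate 1 (adjusted p = 7.46e-05) and 2.12 without replicate 3 (adjusted p = 0.12). The Col18a1 change was 2.4 ± 0.7 (adjusted p = 0.0209), 3.65 without replicate 1 (adjusted p = 2.06e-05) and 1.71 without replicate 3 (adjusted p = 0.148). Averaged over stages the Col15a1 change without replicate 3 was 1.46 (adjusted p = 0.0868). Leaving out a library ended the averaged Col15a1 call in 5 of 12 fits and the averaged Col18a1 call in 0 of 12. At E13.5 alone it ended the Col15a1 call in 1 of 6 fits and the Col18a1 call in 4 of 6. Col7a1 rose by 1.63 ± 0.38, a fold of 3.08 (adjusted p = 0.00373), with 32 to 220 reads a library in SO cells and 8 to 61 in wild-type CD1.

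The window at the RefSeq start of Col15a1 is shown because the gene was called with both alleles and because the window holds CTTTGA. That motif is the core of the sequence that TCF/LEF factors bind. Both strands were searched; the capitals mark it, read as TCAAAG on the gene's strand, at position -130 from that start, which lies upstream of the annotated start of the gene given above.
Col15a1 window, chr4:47207762-47208061, plus strand: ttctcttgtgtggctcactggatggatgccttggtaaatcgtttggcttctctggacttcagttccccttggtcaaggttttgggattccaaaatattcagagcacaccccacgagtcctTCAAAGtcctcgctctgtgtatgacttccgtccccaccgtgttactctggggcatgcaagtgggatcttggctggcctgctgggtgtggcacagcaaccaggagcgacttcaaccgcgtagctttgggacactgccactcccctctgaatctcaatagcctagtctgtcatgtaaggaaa
Windows were found for 30 of the 38 genes, and those of Col15a1, Col20a1, Col5a3, Col13a1, Col6a2 and Col6a1 held the motif. Those of Col24a1, Col11a1 and Col8a2, which were also called with both alleles, held 0 copies. A link of the motif to the changes was not tested. The share was 18.8% of member windows and 16% of all 32851 windows of that length.

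Among the other classes Col23a1 (chr11:51289920-51583918), a transmembrane collagen, stood at 6.53, 6.83 and 6.53 log2 CPM in SO cells at E12.5, against 5.95, 6.09 and 6.01 in wild-type CD1, and at 5.87, 6 and 5.75 in SO cells at E13.5, against 5.45, 5.3 and 4.89 in wild-type CD1. SO libraries were above wild-type at both stages, with a mean change of 0.63 ± 0.12 (adjusted p = 4.29e-04). Col6a2 rose by 0.38 ± 0.12 (adjusted p = 0.0322), while the changes of its partners Col6a1 and Col6a3 were 0.14 ± 0.13 and -0.11 ± 0.13 (adjusted p = 0.514 and 0.627). Col8a2 rose by 0.45 ± 0.14 (adjusted p = 0.0264). Col6a4, a further chain of type VI, fell by 0.71 on the log2 scale (adjusted p = 0.0268). At E13.5 alone Col26a1 rose by 0.28 ± 0.08 (adjusted p = 0.021), and Col17a1, a transmembrane chain of hemidesmosomes, fell by 1.71 on the log2 scale (adjusted p = 0.0452) on 3 to 16 reads a library in SO cells, against 8 to 22 in wild-type CD1. Leaving out a library ended the calls of Col6a2 in 5 of 12 fits, of Col6a4 in 5 of 12, of Col8a2 in 3 of 12, of Col17a1 in 5 of 6 and of Col26a1 in 2 of 6. The adjusted p of Col26a1 was 0.0516 with median scaling and 0.0515 with the 12 libraries of the SO line.

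Markers of other cells moved with the SO allele. Over both stages 10 of 12 stromal markers fell and 2 rose, with sums of 4747 to 5002 CPM in SO cells at E12.5, against 6567 to 6942 CPM in wild-type CD1, and 3837 to 4159 CPM at E13.5, against 5422 to 8184 CPM. Of 8 mural and smooth muscle markers 6 rose and 1 fell, with sums of 749 to 900 CPM at E12.5, against 651 to 773 CPM, and 996 to 1134 CPM at E13.5, against 464 to 535 CPM. Of 9 measured cartilage markers 5 rose and 0 fell, with sums of 370 to 447 CPM at E12.5, against 175 to 191 CPM, and 162 to 189 CPM at E13.5, against 58.5 to 157 CPM. In SO cells over both stages 1 of 8 ureteric markers rose, 1 of 8 nephron progenitor markers rose and 1 fell, and 3 of 7 erythroid and 3 of 4 liver markers fell. In SD cells over both stages 1 ureteric marker fell, 1 nephron progenitor marker rose, 3 erythroid markers fell and 1 cartilage marker rose. Macrophage markers summed to 515 to 791 CPM in SO cells at E12.5, against 748 to 775 CPM in wild-type CD1, and to 448 to 1116 CPM at E13.5, against 304 to 407 CPM. At E13.5 C1qc and C1qa rose by 1.57 ± 0.51 and 1.59 ± 0.52 (adjusted p = 0.0405 and 0.0418), and 8 of the 11 had an unadjusted p under 0.05. At E12.5 and over both stages limma called 0 of the 11, with 0 at an unadjusted p under 0.05. Over both stages limma also called 0 liver markers in SD cells, with 1 at an unadjusted p under 0.05, and 0 of the 2 measured Schwann and neural crest markers with either allele, with 0 at an unadjusted p under 0.05. Actc1, the 1 measured skeletal muscle marker, rose in SO cells at E13.5 by 2.46 ± 0.81 (adjusted p = 0.0416), and its change over both stages was 1.44 ± 0.57 in SO cells (adjusted p = 0.0855) and -0.26 ± 0.57 in SD cells (adjusted p = 0.861). The part of these markers in the collagen values was not tested.

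The SO effect minus the SD effect was called for 11 of 38 genes, where 17.9% of all genes were (9.87% higher and 8.05% lower). It was above 0 for Col15a1 (4.4 ± 0.94, adjusted p = 0.00178), Col18a1 (3.12 ± 0.7), Col7a1 (2.54 ± 0.54), Col14a1 (1.33 ± 0.39), Col23a1 (0.84 ± 0.17), Col4a6, Col12a1, Col11a1 and Col3a1. It was below 0 for Col24a1 (-1.28 ± 0.17, adjusted p = 1.02e-05) and Col6a4 (-0.98 ± 0.31, adjusted p = 0.032). Allele and strain cannot be told apart in this difference. Col24a1 and Col15a1 were called with each allele in opposite directions, as were 2.17% of all genes. Col11a1 and Col8a2 were called upward with both alleles, and 0.891% of all genes were called in the same direction with both. Some alternative fits given above ended the SD calls of Col11a1 and Col8a2. With voom weights the adjusted p of the Col15a1 difference was 0.0976, and 10 of 24 fits that left out a library ended the Col6a4 call.

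Over all 12 comparisons 23 of the 38 genes were called at least 1 time. The matching share of all genes was not computed, so this count has no background to be read against. The 15 members called in none included Col1a1, Col4a1, Col4a2, Col5a2, Col6a1, Col6a3, Col16a1 and Col27a1 among the abundant ones. Their mean changes ran from -0.59 to 0.39 in SD cells and from -0.56 to 1.77 in SO cells, the last being Col9a3 (adjusted p = 0.0818).

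The shares of the other genes of the pathway that were called can be read against 7.17% of all genes in SD cells and 18.5% in SO cells. Of 20 genes that fold and modify collagen chains, P4ha3, a catalytic subunit of prolyl 4-hydroxylase, rose in SD cells by 0.73 ± 0.18 (adjusted p = 0.0131) and 0 fell, while P3h1 and Plod2 had changes of 0.21 and 0.21 (adjusted p = 0.0591 and 0.0596). In SO cells 4 rose and 1 fell, led by the lysyl hydroxylase Plod2 (0.64 ± 0.07, adjusted p = 1.47e-07), the prolyl 3-hydroxylase P3h2 (0.95 ± 0.17) and the prolyl 4-hydroxylase subunit P4ha2 (0.46 ± 0.11). Of 12 measured genes of propeptide cleavage and cross-linking, 4 rose and 0 fell in SD cells, led by the lysyl oxidase Loxl3 (0.37 ± 0.08, adjusted p = 0.00715), the procollagen N-proteinase Adamts14 (0.85 ± 0.23) and Loxl4 (0.82 ± 0.24), another lysyl oxidase. In SO cells 3 rose and 2 fell: the procollagen N-proteinase Adamts3 rose by 1.29 ± 0.12 (adjusted p = 2.05e-08), while Loxl4 and Loxl1 fell by 1.75 and 0.56 on the log2 scale. Of 8 collagen receptors, Ddr1 rose in SD cells by 0.43 ± 0.11 (adjusted p = 0.0219) and 0 fell, and Itga2 and Itga1 had changes of -1.75 and 0.64 (adjusted p = 0.086 and 0.114). In SO cells the integrin chains Itga1 (1.13 ± 0.24) and Itgb1 (0.19 ± 0.04) rose and the uptake receptor Mrc2 fell by 0.22 on the log2 scale. Of 9 measured genes of collagen degradation, the gelatinase Mmp2 rose in SD cells by 0.38 ± 0.07 (adjusted p = 0.00105) and 0 fell, and Fap and Ctsk had changes of -0.32 and 0.95 (adjusted p = 0.116 and 0.193). In SO cells 3 rose and 1 fell: the protease Ctsk rose by 2.8 ± 0.41 (adjusted p = 2.25e-05) and the inhibitor Timp2 by 0.26 ± 0.06, and the membrane-bound collagenase Mmp14 fell by 0.43 on the log2 scale.

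With age the type IV chains Col4a3 (chr1:82586921-82722059) and Col4a4 (chr1:82448423-82586849), which with Col4a5 form the basement membrane of mature glomeruli, were the genes that rose in wild-type cells. Col4a3 had 22, 11 and 42 reads in wild-type C57BL/6 at E13.5, against 2, 5 and 2 at E12.5, and its change was 3.26 ± 0.76 (adjusted p = 0.0198). It was the single member called in that strain, where 3.96% of all genes were (2.08% higher and 1.88% lower). In wild-type CD1 it had 29, 12 and 29 reads at E13.5, against 0, 0 and 0 at E12.5. That is at least 22.4-fold higher, taking 3 counts over the 29.2 M reads of the E12.5 group as the floor (adjusted p = 2.29e-04). Col4a4 rose in CD1, with 41, 37 and 119 reads at E13.5, against 8, 12 and 0 at E12.5 (change 3.97 ± 0.92, adjusted p = 0.0124), and its change in C57BL/6 was 2.36 ± 0.92 (adjusted p = 0.15). The floor covers counting error only. Across fits that left out a library the Col4a4 change in CD1 ran from 2.52 to 4.81; 2 of 6 fits, those without E12.5 replicate 3 or E13.5 replicate 3, ended the call, and with voom weights its adjusted p was 0.105. The starts of the 2 genes lie 72 bases apart, on opposite strands. Col4a3 had 13, 5 and 10 reads in SD cells at E13.5 and 10, 17 and 10 in SO cells, and its changes against wild-type were -1.1 ± 0.76 and -1.47 ± 0.76 (adjusted p = 0.568 and 0.212). Of 6 measured podocyte markers, a list added after these values were seen, 0 rose with age and 3 fell in C57BL/6, and 0 rose and 2 fell in CD1; over both stages 2 rose and 0 fell in SD cells, and 2 rose and 1 fell in SO cells.

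In wild-type CD1 5 of 38 members were called with age, where 5.42% of all genes were (2.42% higher and 3.00% lower). Besides the rise of Col4a3 and Col4a4, Col1a2, Col23a1 and Col26a1 fell by 0.47, 0.8 and 0.37 on the log2 scale (adjusted p = 0.0406, 0.0074 and 0.00966). Leaving out a library ended the Col1a2 call in 5 of 6 fits (adjusted p up to 0.151), the Col23a1 call in 1 of 6 and the Col26a1 call in 0 of 6. In C57BL/6 their changes were -0.15, -0.45 and -0.11 (adjusted p = 0.576, 0.139 and 0.483). E13.5 libraries lay apart from E12.5 libraries for 15 members in C57BL/6, 12 above and 3 below (24.5% of all genes lay apart), and for 11 in CD1, 5 above and 6 below (24.9% of all genes lay apart). Without wild-type CD1 E13.5 replicate 3 the CD1 count was 2. Without wild-type C57BL/6 E12.5 replicate 1 or E13.5 replicate 3 the C57BL/6 count was 0.

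Between strains 2 of 38 members were called, where 4.46% of all genes were (2.62% higher and 1.85% lower). Col8a1 was lower in C57BL/6 than in CD1 wild-type cells (-1.2 ± 0.33, adjusted p = 0.0413), as was the transmembrane gene Col25a1 (-0.44 ± 0.12, adjusted p = 0.0432). Leaving out a library ended the Col8a1 call in 7 of 12 fits and the Col25a1 call in 9 of 12.

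As a share of all reads, the 38 genes took 1.31% ± 0.33 in SD cells at E12.5, against 1.19% ± 0.092 in wild-type C57BL/6, and 1.24% ± 0.198 at E13.5, against 1.23% ± 0.0554 (SD, n = 3 each). In SO cells they took 1.32% ± 0.0161 at E12.5, against 1.37% ± 0.0732 in wild-type CD1, and 1.73% ± 0.138 at E13.5, against 1.27% ± 0.136. At E13.5 the lowest SO library, at 1.61%, was above the highest wild-type library, at 1.43%. Fibrillar genes took 1% ± 0.0112 in SO cells at E12.5, against 1.08% ± 0.048 in wild-type CD1. At E13.5 they took 1.33% ± 0.0952, against 0.971% ± 0.168. SO libraries of that class were under wild-type at E12.5 and above it at E13.5. Shares of the other class lay above wild-type at E13.5 alone, and those of basement membrane genes overlapped it at both stages. FACIT genes took 0.0718% ± 0.00373 at E12.5, against 0.0491% ± 0.00315, and 0.0972% ± 0.0148 at E13.5, against 0.0512% ± 0.0109, and SO libraries were above wild-type at both stages.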

How the data were processed

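RNA of FACS-sorted FoxD1Cre-eGFP kidney stroma, from kidneys dissociated with collagenase, was sequenced on an Illumina HiSeq, per the labels' protocols. The deposited table of the authors holds log2 CPM (TMM scaling, 0.5 added to each count). The submitters' processing notes name mm10, HISAT2, HTSeq and limma, without versions. No source used here states a low-count filter or strand setting. All 24 columns were matched to samples by title and 0 were unmatched. Whole reads were recovered from the values (100% within 0.1 of a whole number) and used for read counts, shares of reads and voom weights.

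Changes were fitted with limma 3.58.1 in R 4.3.3 as 8 group means over 24 libraries with a mean-variance trend (16 residual and 6.43 prior degrees of freedom), for 12 comparisons. The fit was tested on simulated data. Levels per kb use the GENCODE principal transcript, chosen after the summed exon length was seen to inflate Col1a2. Every member called in a comparison is named. Values of each library are given for the called SD genes, the 6 SO genes of smallest p and 5 main chains; those of Col15a1 and Col18a1 in SO cells were chosen after their values were seen. The members and lists were chosen with earlier results of these data known. Alternatives were a replicate block, a pseudocount of 1 CPM, only genes above a mean log2 CPM of 0, voom weights, median scaling, the 12 libraries of 1 line, leaving out each library and, chosen after seeing the data, leaving out both libraries highest in liver markers.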

Additional observations from a re-analysis of the deposited data

Results flagged for a closer look

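Col1a2 was picked out because the SO effect differed between stages by a test of the difference itself. The change in SO cells was 0.64 ± 0.13 at E13.5 and -0.13 ± 0.13 at E12.5, a difference of 0.77 ± 0.19 (log2, limma adjusted p = 0.0453). With median scaling the difference was 0.74 (adjusted p = 0.0506).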

How the results depend on the processing

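Counts of called members moved by over 1.5 times as follows, and the cause was not tested. Against 1 for SD E12.5, 0 for SD E13.5, 1 for the SO difference between stages and 1 for C57BL/6 age, the replicate block gave 3, 3, 2 and 2. The numbers share no stated source. Of 12 mutant and wild-type pairs with the same number, 2 correlated over 0.1. Of 12 mutant libraries, 5 correlated best with their own number. For SD E12.5 replicates 1, 2 and 3 the correlations were 0.198, 0.072 and 0.276, which include the 2 over 0.1. Each of these libraries correlated best with its own number, and whether they were paired with wild-type libraries was not tested. For C57BL/6 age a pseudocount of 1 CPM gave 2 and genes above a mean log2 CPM of 0 gave 0, since Col4a3 was then not tested. Voom weights gave 0 for SD E12.5 and 3 for the SD mean, against 6. Median scaling, which moved the median of all genes by at most 0.03, gave 0 for the SO difference between stages. The 12 libraries of 1 line gave 0 for SD E12.5, 1 for SD E13.5 and 3 for the SO difference between stages. Without both libraries highest in liver markers, an alternative chosen after seeing the data, the counts were 2 for SD E13.5, 8 for SO E13.5, 0 for the SO difference between stages and 3 for CD1 age. Leaving out single libraries gave 0 to 5 for SD E12.5, 0 to 1 for SD E13.5, 3 to 8 for the SD mean, 2 to 4 for SO E12.5, 8 to 15 for SO E13.5, 9 to 15 for the SO mean, 0 to 2 for the SO difference between stages, 9 to 13 for SO minus SD, 0 to 1 for C57BL/6 age, 2 to 6 for CD1 age and 0 to 3 for strain. Of single gene values under these settings 962 kept their call and direction, 182 lost the call and 0 changed sign. Read depth limits Col4a3, Col4a4, Col17a1 and Col20a1.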
